A study of Rattus norvegicus with 25 samples.

Results

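The 10 genes described here carry or answer signals of the bone morphogenetic protein (BMP) and transforming growth factor beta (TGF-beta) families in rat teeth that had been taken out and put back. They were taken by name, as a list put together by function: the BMP ligands Bmp2 and Bmp4, the TGF-beta ligands Tgfb1, Tgfb2 and Tgfb3, the activin subunit gene Inhba, the BMP antagonist Grem1, the BMP-induced gene Id1, and the inhibitory Smad genes Smad6 and Smad7. All 10 were among the 16881 gene symbols of the deposited counts, and 9 of them passed the filter on low counts that left 11492 genes for testing. Smad6 did not pass it.

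RNA came from the maxillary first molar and its periodontal ligament, the fibrous tissue that anchors a root in its socket, in Sprague–Dawley rats. In delayed replantation (DR) the tooth stayed dry for 60 min before it went back into the socket, and in immediate replantation (IR) for 5 min. Tissue was taken 7 or 3 days later, which gave the groups DR day 7, IR day 7, DR day 3 and IR day 3 with 6 libraries each. A group labelled NT, whose treatment and time are both given as control, held 1 library. All libraries carry the label postnatal day 21, which does not say whether this was the age at surgery or at collection, and no label says that libraries came from separate animals. The p-values therefore measure the spread between libraries, which may be technical.

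Ligands of both families are secreted and bind pairs of receptor kinases, which phosphorylate Smad proteins. The Smads carried to the nucleus after BMP binding switch on genes such as Id1, while TGF-beta and activin use another pair of Smads. BMPs drive the formation of bone, dentine and cementum. TGF-betas act in wound repair and matrix deposition, and activin A is known from healing wounds. Gremlin 1 binds BMP2 and BMP4 outside the cell, and Smad6 and Smad7 are feedback inhibitors inside it.

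Depth was 5.04e+06 to 8.81e+06 counts per replanted library and 8.55e+06 in NT, and ribosomal RNA took 9.73% to 33.8% of the counts in replanted libraries against 2.91% in NT. A set of 6 day 3 libraries stood apart: DR day 3 replicates 1, 2 and 3 and IR day 3 replicates 3, 4 and 6. Markers of lipid-secreting glands took 1.79% to 2.84% of the counts in 4 of them, and markers of nasal glands took 24.95% and 29.62% in IR day 3 replicates 3 and 4. Periodontal ligament markers, of which 4 of 6 listed genes were in the files, took 0.000925% to 0.00856% of the counts in these 6 libraries, against 0.0248% to 0.14% in the other 6 day 3 libraries, 0.0401% to 0.0994% at day 7 and 0.289% in NT. Osteoblast and cementoblast markers (6 of 6 in the files) ran from 0.00816% to 0.222% in the 6 libraries, against 0.492% to 1.33% in the other 6. Among the markers of ligament, osteoblasts and cementoblasts, osteoclasts and macrophages, Sp7 was at 0 counts in 4 of the 6 and in 16 of the other 18 replanted libraries, Mmp9 was at 0 in 1 of the 6, and the others had counts in each of the 24 libraries. Ligament markers were thus low in these 6, which are called the set-apart libraries below. The share of gland markers alone does not define them, since nasal gland markers also took 6.06% in IR day 3 replicate 5, 6.73% in DR day 7 replicate 6 and 9.41% in IR day 7 replicate 6. The members' averaged time changes, the within-arm time changes of Bmp4, Grem1 and Id1 and the range of the day 3 drying changes are given with and without these 6.

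The start regions of 4 members are shown because Bmp4 and Id1 were the members that changed with time and Inhba and Grem1 were the members that varied most between libraries. Each is the sense strand of 250 bases before and 50 bases after the annotated start, from RefSeq on the GRCr8 rat build, and 8 of the 10 members had such an entry (Bmp2 and Smad6 did not). Capitals mark 5 motifs searched on both strands. The core bound by Smads is CAGAC, which reads GTCTG when it lies on the other strand, and a second Smad site rich in G and C is GGCGCC. An E-box was searched as CACGTG and the box that places the start of transcription as TATAAA. The last motif, bound by a general factor, is CCAAT and reads ATTGG on the other strand. The Bmp4 window lies on the minus strand at chr15:22101884-22102183, that of Id1 on the plus strand at chr3:161671314-161671613, that of Inhba on the minus strand at chr17:53804459-53804758 and that of Grem1 on the minus strand at chr3:120978270-120978569.
Bmp4: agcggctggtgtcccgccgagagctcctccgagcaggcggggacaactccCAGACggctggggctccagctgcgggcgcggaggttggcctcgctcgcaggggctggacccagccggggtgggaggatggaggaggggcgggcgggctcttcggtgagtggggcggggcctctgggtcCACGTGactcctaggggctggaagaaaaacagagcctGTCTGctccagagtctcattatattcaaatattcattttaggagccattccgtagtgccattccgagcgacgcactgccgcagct
Id1: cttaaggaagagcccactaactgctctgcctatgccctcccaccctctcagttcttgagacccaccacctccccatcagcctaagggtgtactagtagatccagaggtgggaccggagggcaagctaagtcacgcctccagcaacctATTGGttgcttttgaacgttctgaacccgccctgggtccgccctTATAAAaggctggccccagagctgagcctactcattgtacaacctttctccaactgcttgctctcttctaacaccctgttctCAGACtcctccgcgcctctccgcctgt
Inhba: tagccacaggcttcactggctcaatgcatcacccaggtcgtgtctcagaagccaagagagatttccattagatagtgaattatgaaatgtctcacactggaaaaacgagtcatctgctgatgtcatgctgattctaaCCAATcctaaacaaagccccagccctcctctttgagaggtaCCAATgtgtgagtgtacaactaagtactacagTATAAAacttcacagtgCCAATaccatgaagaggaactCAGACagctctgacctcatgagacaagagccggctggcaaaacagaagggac
Grem1: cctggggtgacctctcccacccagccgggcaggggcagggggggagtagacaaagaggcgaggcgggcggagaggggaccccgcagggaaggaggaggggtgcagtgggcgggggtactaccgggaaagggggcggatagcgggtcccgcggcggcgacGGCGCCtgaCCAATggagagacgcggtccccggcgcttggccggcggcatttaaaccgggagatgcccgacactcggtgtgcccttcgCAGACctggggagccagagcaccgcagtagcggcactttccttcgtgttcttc
The CAGAC core was in 4 of the 8 member windows, which are the 4 shown, and in 50.1% of 33469 rat start regions of the same length. In Bmp4 it begins 200 bases before the start, with another copy on the opposite strand 35 bases before it. In Id1 it begins 23 bases after the start, in Inhba 2 bases and in Grem1 3 bases before it. A TATAAA was found in the Id1 window (59 bases before the start) and the Inhba window (40 bases before), 2 of the 8 member windows, against 14.2% of all windows. CCAAT was in the windows of Id1, Inhba and Grem1, with 3 copies in Inhba, so in 3 of 8, against 37.5% of all windows. CACGTG was in Bmp4 and Tgfb2 (6.42% of all windows) and GGCGCC in Grem1 and Smad7 (11% of all windows). None of the marked motifs overlapped another, and a match describes letters only.

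Drying for 60 instead of 5 min was compared first, since this is the contrast the groups were built on. None of the 9 tested members passed the test for a difference between DR and IR on either day. At day 3 the log2 fold changes of DR over IR ran from -0.63 for Inhba to -0.05 for Grem1, each smaller than its standard error (SE), and edgeR's adjusted p lay between 0.983 and 0.997. At day 7 they ran from -0.60 for Grem1 to 0.10 for Smad7, again each smaller than its SE, with an adjusted p of 1. Across all tested genes 0% were called on either day (0 of 11492), and 313 genes (2.72%) at day 3 and 206 genes (1.79%) at day 7 had an unadjusted p under 0.05, none of them a member. DESeq2 and limma-voom with sample quality weights called 0 of 9 members on either day as well, while over all genes DESeq2 called 0 at day 3 and 3 at day 7, and limma-voom 1190 at day 3 and 0 at day 7. Without IR day 3 replicate 6 edgeR called 576 genes at day 3, none of them a member. When the 6 set-apart libraries were left out, the 9 changes at day 3 ran from -0.59 for Inhba to 0.28 for Tgfb3, with 0 called. The direction turned in a fit with the shares of lipid-secreting gland, nasal gland and skeletal muscle markers as covariates, where all 9 changes at day 3 were positive, at 0.50 to 2.51. That fit called 0 of 9 members (0.0087% of all genes), and 5 of 9 had an unadjusted p under 0.05 (15.5% of all genes). The SE of 0.343 to 1.12 at day 3 sets what these libraries could show.

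**Figure D1:**
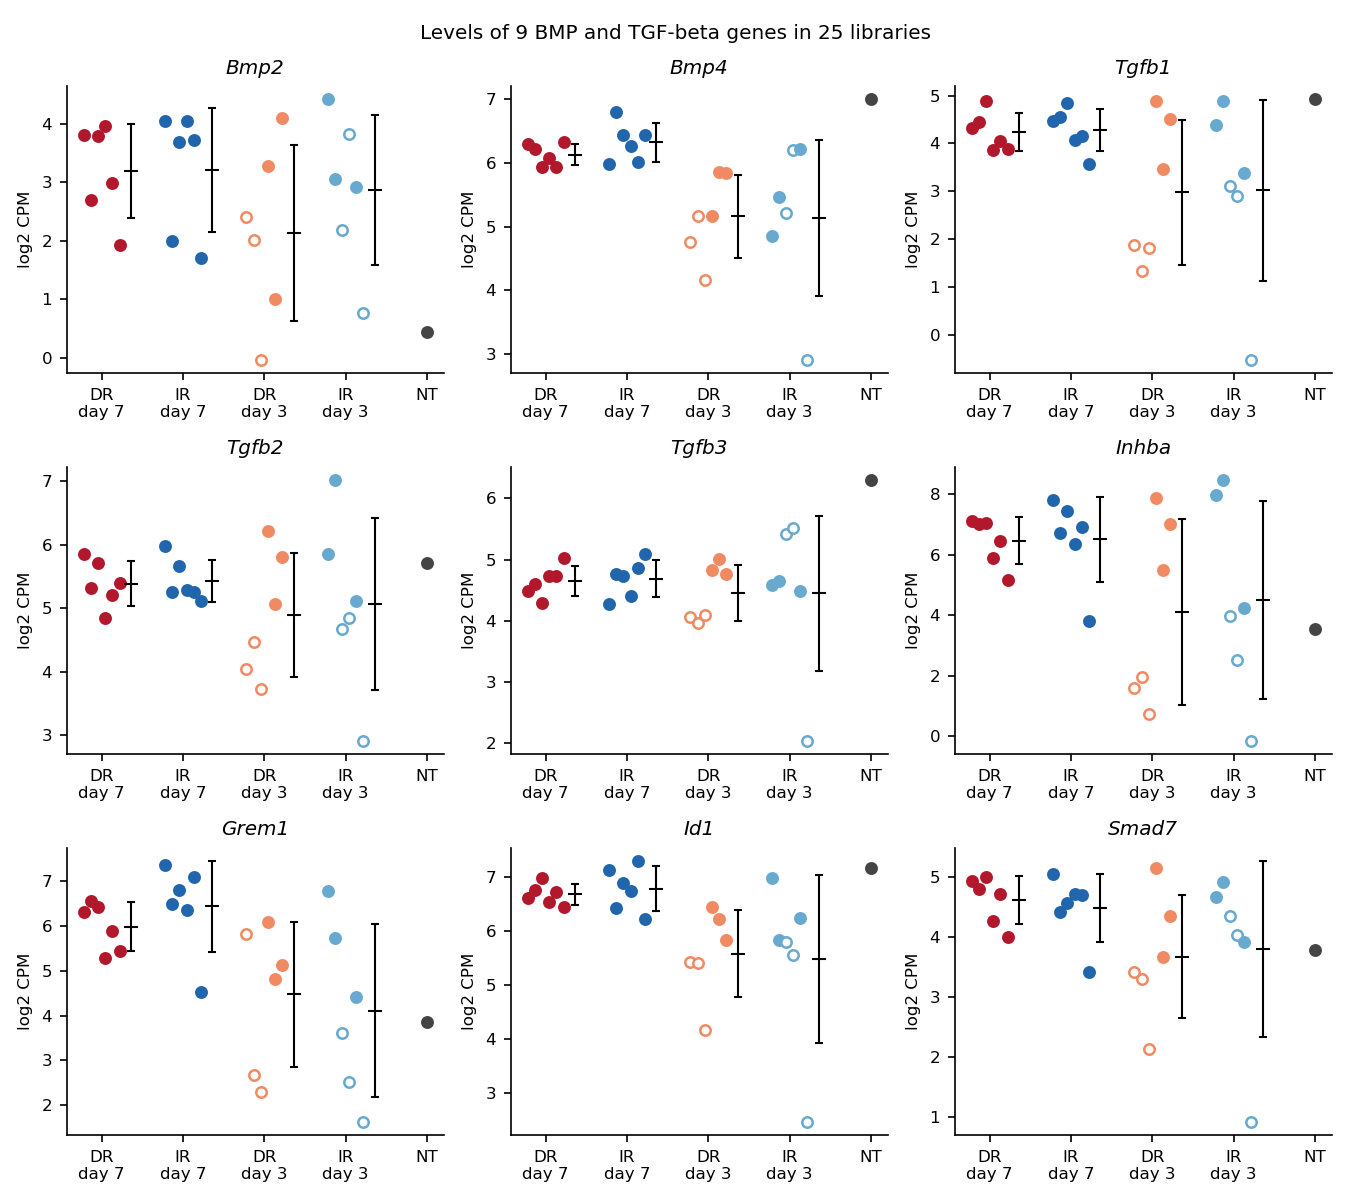
Level of each tested member in every library, as log2 CPM (read counts scaled to the effective library size), by group; open points are the 6 set-apart day 3 libraries, and the bars are the mean ± SD over 6 libraries. The day 7 points lie close together for Bmp4 and Id1, between 5.93 and 6.79 and between 6.23 and 7.30, while Inhba spans -0.16 to 8.46 at day 3.

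Bmp4, a ligand of tooth and bone formation, rose between day 3 and day 7. Its level had a lowest, median and highest library of 60.8, 70.7 and 79.7 CPM in DR day 7, against 17.5, 35.8 and 57.7 CPM in DR day 3. In IR day 7 the 3 values were 63.0, 81.3 and 110.1 CPM, against 7.24, 40.5 and 73.8 CPM in IR day 3. All 12 day 7 libraries lay above the day 3 median, and in DR the groups of the 2 days did not overlap. The mean log2 CPM of Bmp4 was 6.23 ± 0.25 at day 7, against 5.15 ± 0.93 at day 3 (SD over 12 libraries each). Averaged over DR and IR the fitted log2 fold change was 0.88 (SE 0.254, edgeR adjusted p = 0.0215), a 1.84-fold rise. The log2 fold change was 0.87 in DR and 0.88 in IR, but neither arm passed the test alone (adjusted p 0.157 in DR and 0.182 in IR). Without the 6 set-apart libraries the averaged log2 fold change was 0.63 (SE 0.183), with 0.52 in DR and 0.73 in IR, and the call was lost, at an adjusted p of 0.141. It was also lost with the 3 tissue shares in the fit, at 0.56 averaged (adjusted p = 0.34), 0.10 in DR and 1.01 in IR.

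Bmp2, the bone-inducing ligand, was scarce and showed no change that passed the test. In DR day 7 the lowest, median and highest library held 3.50, 10.6 and 15.3 CPM, against 0.681, 4.38 and 16.9 CPM in DR day 3. In IR day 7 they held 2.96, 12.7 and 16.3 CPM, against 1.41, 7.66 and 21.1 CPM in IR day 3. The days overlapped fully in both arms, and the highest library of all was IR day 3 replicate 1 with 170 counts. The log2 fold change over time was 0.44 (SE 0.449, edgeR adjusted p = 0.502), and -0.02 without the 6 set-apart libraries. The level of Bmp2 was thus below that of Bmp4 in all 25 libraries, from 9 counts against 1076 in NT to 170 against 231 in IR day 3 replicate 1. QuantSeq reads come from the 3′ ends of transcripts, so these counts do not grow with transcript length.

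Tgfb1, the TGF-beta of platelets and immune cells, had a lowest, median and highest library of 14.3, 17.96 and 29.3 CPM in DR day 7, against 2.24, 7.10 and 29.4 CPM in DR day 3. In IR the values were 11.6, 19.8 and 28.4 CPM at day 7 and 0.402, 9.23 and 29.2 CPM at day 3. The highest libraries were alike on both days, and every library under 11.6 CPM was at day 3. The 6 set-apart libraries averaged 1.75 ± 1.31 log2 CPM, against 4.25 ± 0.67 in the other 6 day 3 libraries and 4.26 ± 0.40 in the 12 of day 7. Macrophage markers (8 of 9 in the files) took 0.00685% to 0.0213% of the counts in the set-apart libraries, against 0.0313% to 0.0717% in the other 6, and their part in the level of Tgfb1 was not tested. The log2 fold change over time was 0.67 (SE 0.435, edgeR adjusted p = 0.276) with all libraries and -0.03 (SE 0.246) without the 6. The limma-voom fit with sample quality weights called Tgfb1 at 1.46 (SE 0.29, adjusted p = 0.000406). Such weights are meant to count outlying libraries less, but those of the 6 set-apart libraries were not examined.

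Tgfb2 ran from 28.4 to 57.6 CPM in DR day 7, against 12.9 to 73.8 CPM in DR day 3, and from 34.3 to 62.9 CPM in IR day 7, against 7.24 to 129.9 CPM in IR day 3. The highest and the lowest libraries were both at day 3. Outside the set-apart libraries the 6 day 3 libraries averaged 5.84 ± 0.73 log2 CPM, above the 5.41 ± 0.33 of the 12 day 7 libraries (SD). With all libraries the log2 fold change over time was 0.08 (SE 0.334, edgeR adjusted p = 0.888), and it turned to -0.52 (SE 0.232, adjusted p = 0.352) without the 6. The limma-voom fit called it at 0.62 (SE 0.2, adjusted p = 0.0143).

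Tgfb3, the third TGF-beta, had the smallest spread of the ligands in the 6 day 3 libraries that were not set apart. Its level was 19.4 to 32.3 CPM in DR day 7, against 15.4 to 31.9 CPM in DR day 3, and 19.2 to 34.1 CPM in IR day 7, against 3.82 to 45.5 CPM in IR day 3. Both ends of the IR day 3 range were set-apart libraries: replicate 6 held 3.82 CPM, while replicates 3 and 4, those rich in nasal gland markers, held 42.6 and 45.5 CPM. The remaining 6 day 3 libraries averaged 4.72 ± 0.19 log2 CPM and the 12 day 7 libraries 4.67 ± 0.26. The log2 fold change over time was 0.05 (SE 0.242, edgeR adjusted p = 0.907), and -0.01 without the 6.

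Inhba, which encodes the subunit that builds activin A, varied most of all members. In DR day 7 its lowest, median and highest library held 35.5, 108.8 and 136.6 CPM, against 1.36, 23.96 and 234.9 CPM in DR day 3. In IR day 7 they held 13.8, 111.7 and 221.4 CPM, against 0.603, 17.01 and 352.4 CPM in IR day 3. The raw counts went as low as 3 (IR day 3 replicate 6) and as high as 2053 (IR day 3 replicate 2), both within 1 group. All 6 set-apart libraries were low, none above 15.4 CPM, although IR day 3 replicate 5, which is not among them, held 18.7 CPM. They averaged 1.77 ± 1.43 log2 CPM, against 6.83 ± 1.65 in the other 6 day 3 libraries and 6.47 ± 1.09 at day 7. Mean and median differed over time: the mean was 107.7 CPM at day 7 and 87.8 CPM at day 3, the median 111.7 CPM at day 7 and 17.01 CPM at day 3. The edgeR fit, which follows the mean, gave a log2 fold change of 0.32 (SE 0.786, adjusted p = 0.799), and -0.61 (SE 0.537, adjusted p = 0.686) without the 6 libraries. The limma-voom fit with sample quality weights gave 2.96 (SE 0.594, adjusted p = 0.000422).

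Marker shares were set beside Inhba without a correlation being computed. Osteoclast markers, 5 of 7 listed genes in the files, took 0.00288% to 0.0417% of the counts in the set-apart libraries, against 0.097% to 0.641% in the other 6 day 3 libraries and 0.255% to 0.964% at day 7. The lowest Inhba of each day 7 group was in the library with the most nasal gland RNA: IR day 7 replicate 6 (9.41% nasal gland markers) had 13.8 CPM and DR day 7 replicate 6 (6.73%) had 35.5 CPM. Other libraries went the other way. DR day 3 replicate 4 had 5.59% nasal gland markers and 234.9 CPM of Inhba. NT had 11.2 CPM of Inhba, with ligament markers at 0.289% and osteoblast and cementoblast markers at 1.85%, above every replanted library. The part of these shares in the level of Inhba was not tested. In such bulk libraries fewer cells of a type and less RNA per cell cannot be told apart.

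**Figure D2:**
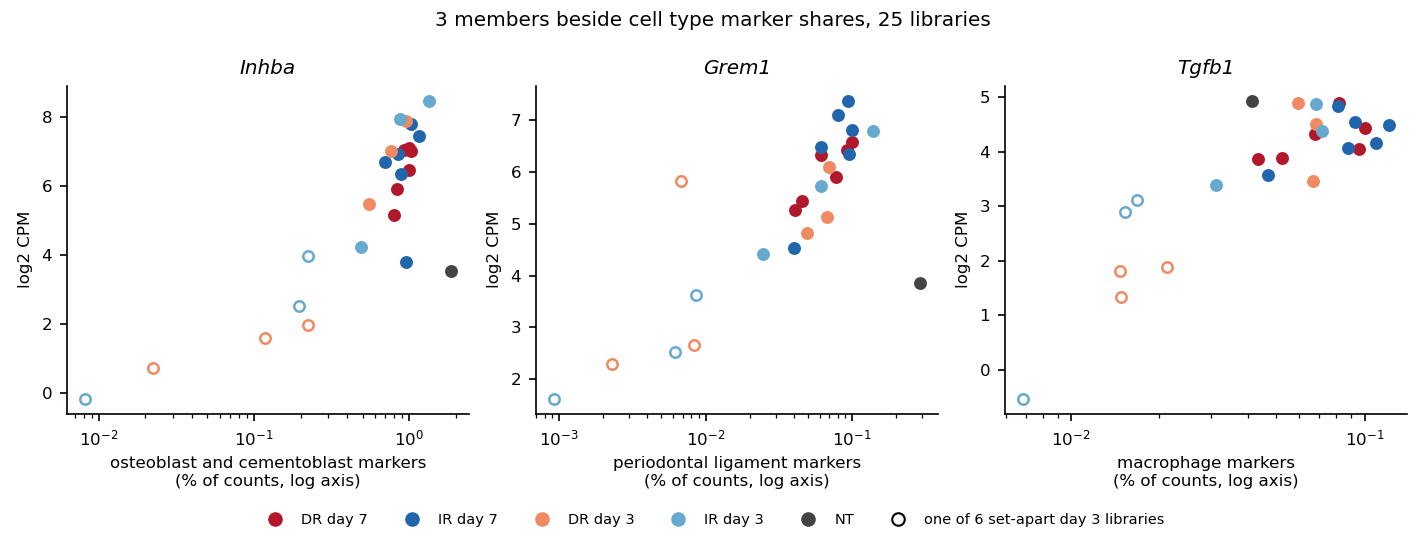
Log2 CPM of Inhba, Grem1 and Tgfb1 (vertical axes) against the share of counts in 3 marker lists (horizontal log axes, percent), 1 point per library with the group in colour and the 6 set-apart day 3 libraries as open points. The open points sit at the low end of all 3 marker shares, with Inhba at 3.97 log2 CPM or less in each.

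Grem1, the antagonist of BMP2 and BMP4, was higher at day 7 in most libraries, but its change did not pass the test. The lowest, median and highest library held 38.3, 69.1 and 93.9 CPM in DR day 7, against 4.60, 31.4 and 67.8 CPM in DR day 3. In IR day 7 they held 22.9, 100.1 and 164.5 CPM, against 2.82, 16.6 and 109.2 CPM in IR day 3. Of 12 day 7 libraries 11 lay above the day 3 median, the exception being IR day 7 replicate 6. The fitted log2 fold change was 1.29 (SE 0.5, edgeR adjusted p = 0.0711), the largest of the 9 members, with 1.02 in DR and 1.57 in IR. DESeq2 called it (1.30, adjusted p = 0.0294) and so did limma-voom (2.32, SE 0.393, adjusted p = 0.000101), as did edgeR without IR day 3 replicate 1 (1.72, adjusted p = 0.0135), without DR day 3 replicate 4 (1.46, 0.0435) or without IR day 7 replicate 6 (1.39, 0.0491). Without the 6 set-apart libraries it was 0.69 (SE 0.376, adjusted p = 0.461), with 0.64 in DR and 0.74 in IR. The drying contrast pointed lower in DR at day 7, with all 6 DR libraries under the IR median, at a log2 fold change of -0.60 (SE 0.696, adjusted p = 1), but with 3 tissue shares in the fit the estimate turned to 0.60 (SE 0.478, adjusted p = 0.963).

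Id1, which encodes a helix-loop-helix inhibitor and is a direct target of BMP Smads, rose with time, as did Bmp4. Across the 24 replanted libraries Id1 had a Pearson r of 0.8 with Bmp4 in log2 CPM, but -0.62 over the 12 day 7 libraries alone. Its lowest, median and highest library held 86.6, 101.9 and 127.2 CPM in DR day 7, against 17.7, 49.9 and 86.5 CPM in DR day 3. In IR day 7 they held 74.8, 112.1 and 157.7 CPM, against 5.23, 56.1 and 127.1 CPM in IR day 3. In DR the days did not overlap, the lowest day 7 library and the highest day 3 library being within 1 CPM of each other, and all 12 day 7 libraries lay above the day 3 median. The mean was 6.73 ± 0.31 log2 CPM at day 7, against 5.53 ± 1.19 at day 3 (SD over 12 libraries each), and the fitted log2 fold change 0.92 (SE 0.302, edgeR adjusted p = 0.0376), a 1.89-fold rise. It was 0.95 in DR (adjusted p = 0.192) and 0.89 in IR (adjusted p = 0.24). Without the 6 set-apart libraries it was 0.47 (SE 0.178, adjusted p = 0.261), at which the call was lost, with 0.54 in DR and 0.40 in IR. The fit with 3 tissue shares lost it as well, at 0.32 averaged (adjusted p = 0.641), 0.10 in DR and 0.53 in IR. So did leaving out any 1 of 12 libraries, at adjusted p of 0.0508 to 0.0633: DR day 7 replicates 1, 2 and 3, IR day 7 replicates 1, 3, 4 and 5, DR day 3 replicates 1, 2 and 3, and IR day 3 replicates 3 and 4.

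Smad7, the inhibitor of both branches, averaged 4.54 ± 0.47 log2 CPM at day 7, against 3.73 ± 1.2 at day 3 (SD over 12 libraries each). Its range was 15.6 to 31.6 CPM in DR day 7, against 4.09 to 35.1 CPM in DR day 3, and 10.4 to 32.7 CPM in IR day 7, against 1.61 to 29.9 CPM in IR day 3. The fitted log2 fold change over time was 0.54 (SE 0.329, edgeR adjusted p = 0.246), and 0.10 without the set-apart libraries. The limma-voom fit called it at 0.84 (SE 0.21, adjusted p = 0.00266), and with 3 tissue shares in the edgeR fit it was -0.24. Smad6, the inhibitor of BMP receptors, had 2 counts in all 25 libraries together, 1 each in IR day 7 replicates 1 and 6. A floor of 3 counts stands for 0.34 to 0.595 CPM of the raw library totals, so Smad6 was not detectable beyond that level. The other CPM here use effective library sizes, on which 3 counts were 0.603 CPM in IR day 3 replicate 6. Limits of this kind cover counting error only.

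Set side by side, 2 of 9 tested members, Bmp4 and Id1, rose with time averaged over DR and IR. Across all tested genes 18.8% changed (6.94% higher and 11.8% lower). The members' share is thus near the background for both directions pooled, and by direction it is 2 of 9 against 6.94% higher and 0 of 9 against 11.8% lower. All 9 fitted changes were positive, against 45.3% of all genes, with a median of 0.54 against -0.06 over all genes. In the 18 libraries that were not set apart 4 of 9 were positive and edgeR called 0 of 9 (0.435% of all genes), with an unadjusted p under 0.05 in 3 of 9 (13.1% of all genes). The fit with 3 tissue shares also called 0 of 9 (0.531% of all genes). With all libraries DESeq2 called 3 of 9, Grem1 being the third (26.4% of all genes), and limma-voom called 7 of 9, all but Bmp2 and Tgfb3 (47.7% of all genes). In DR 0 of 9 members were called by edgeR (0.0087% of all genes) and 2 had an unadjusted p under 0.05 (22.5% of all genes). In IR 0 of 9 were called (0.139% of all genes) and 3 had an unadjusted p under 0.05 (20.4% of all genes). Without IR day 3 replicate 6, which enters the shared estimate of spread, edgeR called Bmp4 and Id1 in DR at adjusted p of 0.0316 and 0.0379, in a fit that called 12.4% of all genes. In either arm DESeq2 also called 0 (9.3% of all genes in DR and 6.61% in IR), while limma-voom with sample quality weights called 6 in DR (28.8% of all genes) and 5 in IR (38.2%). Bmp4 and Id1 were the 2 of 9 members whose DR groups did not overlap, against 1.93% of all genes higher in that way. For the interaction, which asks whether time acted differently in DR and IR, 0 of 9 members were called by edgeR, DESeq2 or limma-voom (edgeR: 0% of all genes, with an unadjusted p under 0.05 in 3.01%, none a member), with estimates of -0.55 to 0.48.

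**Figure D3:**
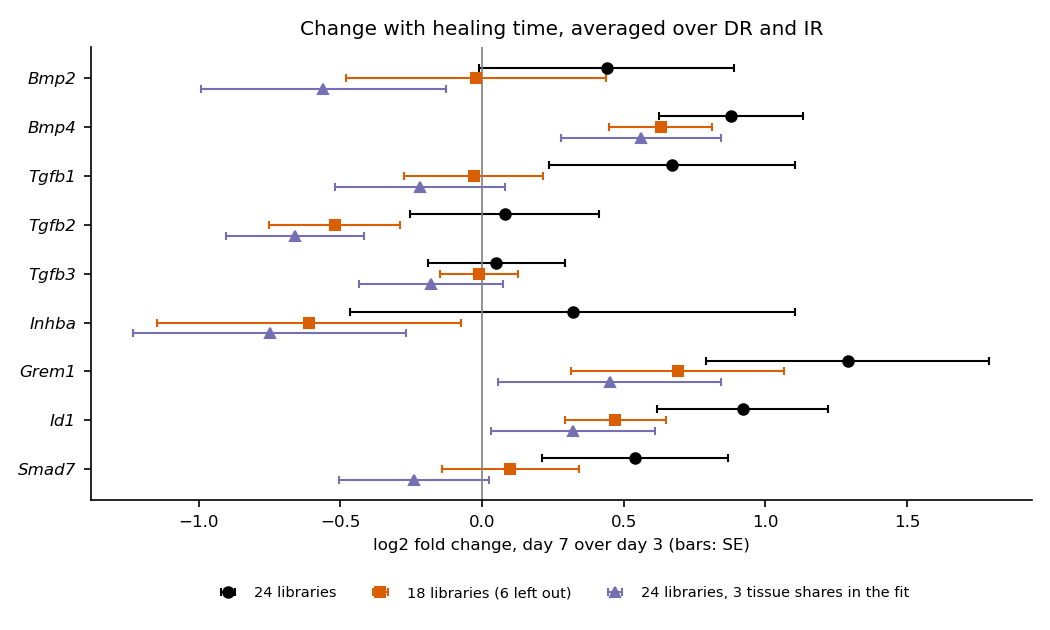
Log2 fold change of day 7 over day 3 for 9 members (points; bars are 1 SE) with all 24 replanted libraries (circles), without the 6 set-apart libraries (squares) and with the marker shares of lipid-secreting glands, nasal glands and skeletal muscle in the fit (triangles). Bmp4, Grem1 and Id1 stay positive in all 3 fits, at 0.56, 0.45 and 0.32 in the last, where none of the 9 was called. Bmp2, Tgfb1, Tgfb2, Tgfb3 and Inhba lie above 0 with all libraries and below 0 in both other fits. Smad7 lies below 0 in the last fit alone.

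The rest of the pathway was read from 71 further genes in 7 lists by role, of which 66 were in the files and 55 were tested. Over time 7 of these rose (6.94% of all genes) and 3 fell (11.8% of all genes). For both directions pooled their share is near the 18.8% of all genes called. The median change was 0.32, against -0.06 over all genes. The 2 that fell furthest were the ligand Bmp5, by 1.30 on the log2 scale (SE 0.388, edgeR adjusted p = 0.025), and the BMP-responsive Id4, by 1.11 (SE 0.379, adjusted p = 0.0445). Among receptors Bmpr1a, a receptor for BMP2 and BMP4, fell by 0.67 (SE 0.215, adjusted p = 0.0344), and Acvrl1, the endothelial receptor ALK1, rose by 0.89 (SE 0.284, adjusted p = 0.0338). Smad4, the partner shared by both branches, rose by 0.36 (SE 0.102, adjusted p = 0.02).

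Of 10 tested antagonists Nbl1 rose by 0.76 (SE 0.185, edgeR adjusted p = 0.0104) and Chrdl1 by 1.10 (SE 0.314, adjusted p = 0.0201), while Twsg1 had -0.93 (adjusted p = 0.0842), which DESeq2 and limma-voom called lower. Of 8 genes for storage and release of latent TGF-beta, Ltbp3 rose by 0.48 (SE 0.127, adjusted p = 0.0155) and Ltbp4 by 0.83 (SE 0.272, adjusted p = 0.0373). Both encode proteins that hold latent TGF-beta in the matrix. Of 11 genes known to answer TGF-beta, Col1a1, the main collagen of bone and ligament, rose by 1.54 (SE 0.471, adjusted p = 0.0279), and its level was 15.3 ± 0.38 log2 CPM at day 7 and 13.1 ± 1.97 at day 3. Id3, the close relative of Id1, had a change of 0.85 (SE 0.326, adjusted p = 0.0702) and did not pass. Without the 6 set-apart libraries 0 of 55 were called by edgeR (0.435% of all genes), and 10 had an unadjusted p under 0.05 (13.1% of all genes). The 10 genes called with all libraries kept their sign there, at -0.83 for Bmp5, -0.41 for Id4, -0.30 for Bmpr1a, 0.49 for Acvrl1, 0.31 for Smad4, 0.62 for Nbl1, 1.10 for Chrdl1, 0.27 for Ltbp3, 0.83 for Ltbp4 and 0.86 for Col1a1. The fit with 3 tissue shares called 0 of 55 (0.531% of all genes). The 10 changes there were -1.09 for Bmp5, -0.03 for Id4, -0.31 for Bmpr1a, 0.34 for Acvrl1, 0.38 for Smad4, 0.62 for Nbl1, 1.19 for Chrdl1, 0.27 for Ltbp3, 1.2 for Ltbp4 and 0.78 for Col1a1. With all libraries DESeq2 called 13 higher (10.9% of all genes) and 5 lower (15.6%), and limma-voom 25 higher (24.3%) and 6 lower (23.3%). In the drying contrasts edgeR called 0 of the 55 (2 with an unadjusted p under 0.05 on each day, against 2.72% of all genes at day 3 and 1.79% at day 7). DESeq2 also called 0, and limma-voom 2 at day 3, Itgb8 and Nbl1 (10.4% of all genes). The smallest p at day 3 was that of Nbl1, at a log2 fold change of DR over IR of -0.65 (SE 0.261, adjusted p = 0.983), and at day 7 that of Smurf1, a ligase that marks Smads for breakdown, at -0.68 (SE 0.235, adjusted p = 1). Within either arm edgeR called 0 of the 55 over time, with an unadjusted p under 0.05 in 12 in DR (22.5% of all genes) and 15 in IR (20.4%). DESeq2 called 3 in DR, Ltbp2, Msx2 and Nbl1 (9.3% of all genes), and 2 in IR, Bmp5 and Ltbp4 (6.61%). The limma-voom fit called 17 in DR (28.8%) and 24 in IR (38.2%).

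**Figure D4:**
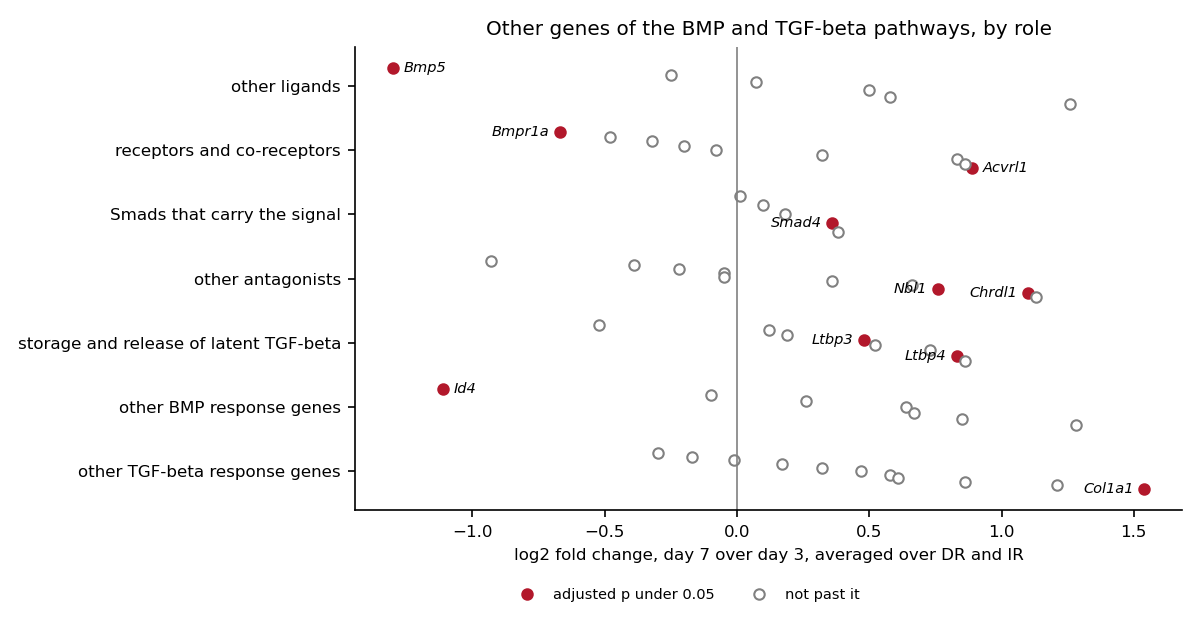
Log2 fold change of day 7 over day 3, averaged over DR and IR, for 55 tested pathway genes in 7 lists by role (1 point per gene; Ltbp2 is in 2 lists). Filled points passed an edgeR adjusted p of 0.05: 7 lie right of 0, up to 1.54 for Col1a1, and 3 left of it, down to -1.30 for Bmp5.

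Each member's nearest companions were taken as the 3 genes outside the list with the highest Pearson correlation of log2 CPM over the 24 replanted libraries, a description of libraries that share depth and tissue make-up. Inhba ran with Msx1 (r = 0.985), Msn (0.981) and Cd93 (0.981), and these 3 also followed it over the 12 day 7 libraries alone, at 0.915, 0.982 and 0.914. Id1 ran with Id3 (0.953), which over the day 7 libraries alone gave 0.168, and with Vasn (0.953) and Dennd5a (0.95), at 0.589 and 0.622 over day 7 alone. Bmp4 ran with Tmem176a (0.94), Cfp (0.921) and Evl (0.921), which gave 0.427, 0.379 and 0.601 at day 7. Grem1 ran with Marveld1 (0.939), Ehd4 (0.935) and Bst1 (0.929), and these stayed at 0.89 to 0.937 at day 7. For the other members the closest was Lcp2 for Tgfb1 (0.978), Diaph3 for Tgfb2 (0.972), Gcnt1 for Tgfb3 (0.931), Trps1 for Smad7 (0.967) and Rai14 for Bmp2 (0.823). Over day 7 alone these 5 gave 0.707, 0.85, 0.463, 0.858 and 0.716.

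Set against NT, the members split into genes above and genes below the single NT library, with no replicate and so no test. Ratios are log2 of mean CPM plus 5 over NT CPM plus 5, and a log2 ratio of 1 or more either way counts as past the fold. Inhba lay above NT by 2.65 in DR day 7 and 2.93 in IR day 7, at means of 96.9 and 118.5 CPM against 11.2 CPM in NT. Grem1 lay above it by 1.90 and 2.46, at 66.4 and 100.6 CPM against 14.2 CPM, and Bmp2 by 1.30 and 1.38, at 9.98 and 10.7 CPM against 1.065 CPM, which rests on 9 counts in NT. In all 12 day 7 libraries these 3 genes were above NT, as were 21.3% of all genes in the 6 DR libraries and 18.6% in the 6 IR libraries. They are the 3 of 9 members higher by the fold in DR day 7 (6.47% of all genes) and in IR day 7 (4.8% of all genes). With totals without ribosomal RNA Smad7 joined them in DR day 7 at 1.05 (4 of 9, against 12.9% of all genes). These totals also leave out the effective library sizes behind the other CPM, so such shifts cannot be credited to ribosomal RNA alone. At day 3 Inhba was above NT in 3 of 6 DR libraries and 4 of 6 IR libraries. Grem1 was above it in 4 of 6 and 3 of 6, and Bmp2 in 5 of 6 and 6 of 6.

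Below NT lay Tgfb3, by 1.47 in DR day 7 and 1.43 in IR day 7 (means of 25.1 and 26.0 CPM against 78.4 CPM in NT), the only member lower by the fold at day 7 (3.58% of all genes in DR and 2.82% in IR). At day 3 Bmp4 lay below NT by 1.61 in DR and 1.43 in IR, at 38.4 and 44.0 CPM against 127.3 CPM, and Id1 by 1.35 and 1.17, at 53.4 and 61.2 CPM against 143.8 CPM. At day 3 the count was 4 of 9 members lower by the fold in DR (6.2% of all genes) and 3 of 9 in IR (4.86%). Higher were 1 of 9 in DR (10.2%) and 3 of 9 in IR (10.2%). Tgfb1 lay at the edge, at -1.05 in DR and a rounded -1 in IR, just short of the fold. With 1 CPM added in place of 5 the lower count was 4 of 9 in DR (9.82%) and in IR (7.91%). With totals without ribosomal RNA it was 3 of 9 in DR (3.85%) and 2 of 9 in IR (3.7%). The count of 1 in DR rests on the scale: with 1 CPM added in place of 5 it was 3 of 9 (17.7% of all genes), with Bmp2 at 1.81, Inhba at 2.52 and Grem1 at 1.15, and with totals without ribosomal RNA it was again 3 of 9 (17.2%). With the set-apart libraries left out, so that 3 remain in each group, the day 3 ratios of Bmp4 were -1.26 in DR and -1.30 in IR, those of Id1 -0.94 and -0.70, short of the fold, those of Grem1 1.34 and 1.78 and those of Inhba 3.11 and 3.70. Scaling to totals without ribosomal RNA, and without TMM, moved the day 7 ratios of Bmp4 to -0.42 in DR and -0.32 in IR. It moved those of Id1 to -0.06 and -0.03, and at day 3 that of Id1 in IR to -0.94, short of the fold. NT also differed in make-up, with periodontal ligament markers at 0.289% of counts and osteoblast and cementoblast markers at 1.85%, both above every replanted library, and their part in the ratios was not tested.

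Of the 7 other tested BMP response genes, Msx2 and Dlx5, transcription factors of bone and tooth cells, were below NT by the fold in all 4 groups. At day 7 Msx2 had log2 ratios of -1.25 in DR and -1.59 in IR, and Dlx5 of -1.02 and -1.11, so Dlx5 lay close to the fold there. The pathway ratios were not recomputed with totals without ribosomal RNA, a scaling that raised the day 7 ratio of every tested member. Those of day 3 were also not recomputed without the 6 set-apart libraries. For Id1 that step moved the day 3 ratios to -0.94 in DR and -0.70 in IR, short of the fold. At day 3 Msx2 had -2.23 and -1.82, and Dlx5 -1.86 and -1.25. Id3 had -0.91 and -0.82 at day 7 and was past the fold at day 3, at -1.69 and -1.63. Msx1 was past it at day 3 as well (-1.38 and -1.28) and Atoh8 in IR day 3 (-1.03). The others lay above NT: Id4 had 0.69 and 0.18 at day 7 and was past the fold at day 3, at 1.48 and 1.40, and Id2 had 0.78 and 0.67 at day 7 and 0.99 and 0.67 at day 3. In this list 2 of 7 were lower by the fold in both day 7 groups, 4 of 7 in DR day 3 and 5 of 7 in IR day 3, against 3.58% (DR) and 2.82% (IR) of all genes at day 7 and 6.2% (DR) and 4.86% (IR) at day 3. Over all 55 pathway genes 5 were lower and 2 higher by the fold in DR day 7. In IR day 7 the counts were 5 lower and 3 higher. They were 13 lower and 2 higher in DR day 3, and 12 lower and 2 higher in IR day 3. Of all genes 6.47% (DR) and 4.8% (IR) were higher by the fold at day 7, and 10.2% in either arm at day 3. Of the 8 genes for storage and release of latent TGF-beta 4 were lower in DR and 3 in IR at day 3. The BMP receptor Bmpr2 lay above NT by the fold in all 4 groups (1.26 and 1.11 at day 7, 1.32 and 1.60 at day 3), and Eng, an endothelial co-receptor for TGF-beta, did so at day 7 (1.53 in DR and 1.88 in IR).

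**Figure D5:**
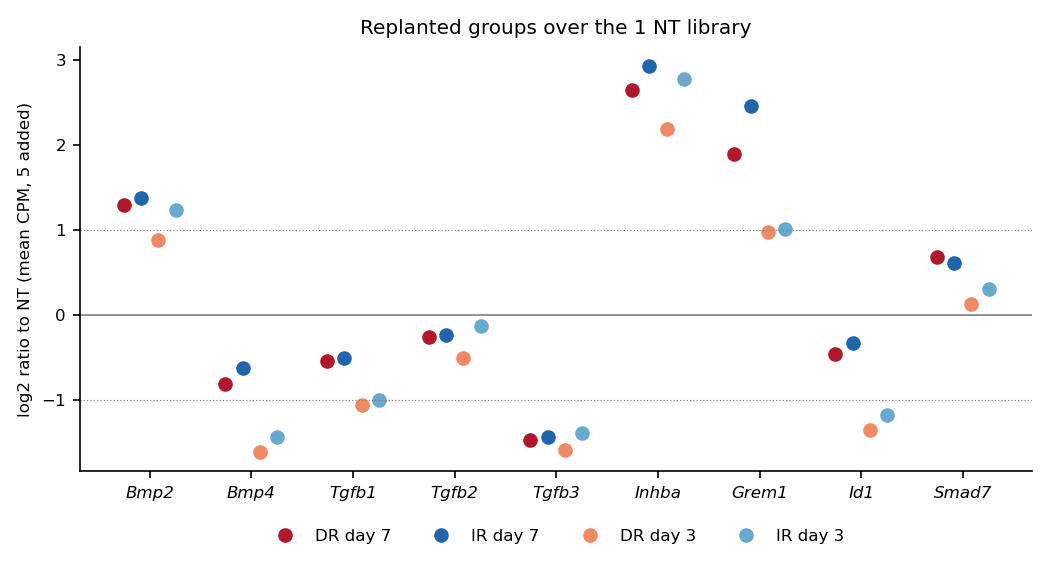
Log2 ratio of each replanted group's mean CPM over the 1 NT library (5 CPM added to both) for 9 members; dotted lines mark a ratio of 1 either way. Inhba, Grem1 and Bmp2 lie above 0 in all 4 groups and Bmp4, Tgfb1, Tgfb3 and Id1 below it, as they do with totals without ribosomal RNA, while Tgfb2, below 0 here, turns positive in 3 groups under those totals (0.11 in DR and 0.05 in IR at day 7, 0.12 in IR at day 3), with the day 3 groups lower than the day 7 groups for Bmp4 and Id1.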

How the data were processed

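Each library had 1 deposited file of raw read counts, whole numbers listed by gene symbol, from QuantSeq 3′-end libraries made of 500 ng of total RNA per the labels' protocols. The submitters' processing notes name Bowtie2, edgeR and the builds mm10 and rn6 without roles or versions. The counting tool, the annotation and the strand setting were not given in the sources used here, so reads of overlapping or near-identical genes cannot be told apart. For 149 repeated symbols, none a member, the entry with the highest total was kept.

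Counts of the 24 replanted libraries entered 1 edgeR 4.0.16 quasi-likelihood fit (R 4.3.3, TMM scaling, filterByExpr, robust, 4 group means, 20 residual degrees of freedom), with Benjamini-Hochberg adjustment over all 11492 genes and calls under 0.05. Levels are log2 CPM with a prior count of 2. Fitted changes follow mean counts, so a sign can differ from that of mean log2 CPM. NT entered no test. Alternatives were 2 other scalings, no filter, summed repeated symbols, DESeq2 1.42.0, limma-voom (limma 3.58.1), other sample sets, a replicate block and each library left out. A fit with 3 tissue shares and day 3 ratios to NT without the 6 set-apart libraries were added after the data were seen. Replicate numbers come from the labels and run from 1 to 6 in each group, whereas at day 7 the numbers in the library names start at 2 and end at 7, so how libraries pair across days is unknown. By the labels' numbers, same-numbered libraries deviated together between DR and IR at day 7 (r 0.214 to 0.72 in 6 pairs). There 3 of 6 DR libraries had their highest r with the IR library of their own number. In the other contrasts pairing was mostly absent. An r over 0.1 was found in 1 of 6 pairs between DR and IR at day 3. Over time it was found in 1 of 6 pairs in IR and 0 of 6 in DR. The fits were tested on simulated data. Members, lists and motifs were chosen with earlier results of these data known. Named genes were all members, up to 4 called genes per list, and the 3 closest genes per member. Where none was called, the genes of smallest p are given for the drying contrasts alone. Id3, Msx2, Dlx5, Id2, Msx1, Atoh8, Twsg1, Bmpr2 and Eng, and Id4 against NT, were named after their values were seen.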

Additional observations from a re-analysis of the deposited data

Results flagged for a closer look

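Dixon's criterion was applied in 36 groups of 6 libraries, 1 for each tested member and replanted group. A single library lay far from the other 5 in 6 cases. Chance alone flags about 5% of groups, but these groups share the same 24 libraries and the members are correlated across them. The cases are therefore not independent, and their number cannot be read against that 5%. The library IR day 3 replicate 6 was low in 4 members: Tgfb1 at -0.53 log2 CPM (next library 2.90), Tgfb3 at 2.04 (next 4.49), Id1 at 2.46 (next 5.56) and Smad7 at 0.92 (next 3.92). Its Tgfb1 value rests on 2 counts, under the floor of 3 counts used for Smad6. This library also had the smallest share of periodontal ligament markers of all 25, 0.000925% of its counts. The library IR day 7 replicate 6 was low in Inhba at 3.81 log2 CPM (next 6.34) and in Grem1 at 4.53 (next 6.34), and it had the largest share of nasal gland markers at day 7, 9.41%. The part of these shares was not tested.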

How the results depend on the processing

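Of 1113 alternative values of member fold changes, 1015 kept their direction and their side of the threshold, 16 lost a call, 17 gained one and 65 changed sign. Of 90 alternative ratios to NT 7 moved by more than the spread. For DR against IR at day 3 limma-voom called 1190 genes and the fit with 3 tissue shares (lipid-secreting gland, nasal gland and skeletal muscle markers) 1, and at day 7 DESeq2 called 3. For time in IR DESeq2 called 760 and limma-voom 4394, the contrast's own libraries 0 without and 0 with the replicate block, the libraries left without the 6 set-apart ones 1, and the fit with tissue shares 0. For time in DR the count was 0 with RLE scaling, 20 with upper quartile scaling, 0 without a filter, 1069 with DESeq2, 3305 with limma-voom, 74 with the contrast's own libraries, 0 with these and the replicate block, 0 without the 6 libraries and 0 with tissue shares. Averaged over DR and IR it was 5479 with limma-voom, 1197 with the replicate block, 50 without the 6 libraries and 61 with tissue shares. For the interaction DESeq2 called 11 and limma-voom 522. The replicate block, supported by the pairing check at day 7 alone, left 0 genes called between DR and IR at day 7, and over time it kept the calls of Bmp4 (0.95, adjusted p = 0.0395) and Id1 (0.99, adjusted p = 0.0491).

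Leaving out single libraries gave 0 to 576 genes for DR against IR at day 3, 0 to 406 for time in IR, 0 to 1430 for time in DR and 1378 to 2898 averaged. The extremes came without IR day 3 replicate 6 (576 and 1430), IR day 3 replicate 1 (406) and DR day 3 replicate 3 (1378). Bmp4 stayed called in 24 of 24 such fits and Id1 in 12 of 24. Signs changed in the ranges for DR against IR at day 3 of Bmp4 (-0.42 to 0.02), Tgfb1 (-0.59 to 0.34), Tgfb2 (-0.76 to 0.21), Inhba (-1.57 to 0.26), Grem1 (-0.39 to 0.80) and Id1 (-0.44 to 0.15), and at day 7 of Bmp2 (-0.30 to 0.07), Tgfb1 (-0.19 to 0.08), Tgfb2 (-0.14 to 0.10), Tgfb3 (-0.14 to 0.04) and Smad7 (-0.05 to 0.23). Over time they changed for Tgfb2 (-0.03 to 0.39) and Tgfb3 (-0.07 to 0.18).

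With 3 tissue shares in the fit all 9 drying estimates at day 3 turned positive: Bmp2 0.86, Bmp4 0.71, Tgfb1 1.52, Tgfb2 0.91, Tgfb3 0.50, Inhba 2.51, Grem1 1.52, Id1 0.81 and Smad7 0.97, with 0 of 9 called. At day 7 it turned Bmp2 to 0.35, Tgfb1 to 0.63, Tgfb2 to 0.44, Tgfb3 to 0.03, Inhba to 1.76, Grem1 to 0.60 and Id1 to 0.38, and over time Bmp2 to -0.56, Tgfb1 to -0.22, Tgfb2 to -0.66, Tgfb3 to -0.18, Inhba to -0.75, Smad7 to -0.24 and, in DR, Grem1 to -0.01. Without the 6 set-apart libraries the day 3 drying estimates of Bmp4 (0.01), Tgfb1 (0.07) and Tgfb3 (0.28) and the time estimates of Bmp2 (-0.02), Tgfb1 (-0.03), Tgfb2 (-0.52), Tgfb3 (-0.01) and Inhba (-0.61) changed sign. limma-voom turned Grem1 at day 3 to 0.65, Tgfb1 at day 7 to 0.00 and Tgfb3 over time to -0.15, and the replicate block turned Grem1 at day 3 to 0.24. The cause was not tested. Depth limits the members with few counts, Smad6 with 2 in all and Bmp2 with 9 in NT. Low counts also entered the tests. In IR day 3 replicate 6 Tgfb1 had 2 counts, Inhba 3 and Bmp2 7, and Bmp2 had 4 in DR day 3 replicate 3.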
